A study of Mus musculus with 2 samples.

Results

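The respiratory chain was followed through 97 of the 31053 features of the expression matrix, chosen by gene symbol: all mitochondrial subunit genes (symbols starting mt-Nd, mt-Co, mt-Cytb or mt-Atp, 13 features) and the nuclear subunit genes of complexes I to V (Nduf, Sdh, Uqcr, Cox4 to Cox8 and Atp5 symbols, 84 features with 83 symbols, since Atp5o stands on 2 rows). The rule reads symbols only, so subunits under other symbols, such as Cyc1 of complex III and Ndufab1 of complex I, were not counted. The cells were from a single group of mice, wild type, strain C57BL/6;CD1, postnatal day 32, in anagen, when hair follicles grow. Skin cells had been sorted for CD34 and for a histone-GFP driven by the Krt14 promoter, which labels basal keratinocytes, and each of 2 replicate libraries was made with droplet 3′ single-cell chemistry that tags each captured molecule with a unique molecular identifier (UMI). No genotype or treatment was compared, and the labels do not say whether the libraries came from separate animals or how many animals were pooled.

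Complexes I to IV pass electrons from NADH and succinate to oxygen and pump protons across the inner mitochondrial membrane, and complex V, the ATP synthase, uses the proton gradient to make ATP. Complex II is encoded entirely in the nucleus, whereas the other complexes join subunits made from the mitochondrial genome with a larger number imported from the cytosol, so their assembly draws on transcripts from both genomes. Hair follicle stem cells are known for a glycolytic metabolism with active lactate production.

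Kept barcodes had 1000 or more detected genes and no more than 10% of UMIs from mitochondrial genes, 3918 in replicate 1 and 3041 in replicate 2. The kept cells had a median of 9955 UMIs in replicate 1 and 9797 UMIs in replicate 2, and the 97 features together held 4020548 and 2722492 UMIs. The mitochondrial limit removed 21.7% of the otherwise eligible barcodes of replicate 1 and 14.0% of those of replicate 2. Only 3 kept barcodes were shared by both libraries. Keratinocytes (Krt5 and Krt14 together above 500 CPM, UMIs per 1000000) were placed by marker genes in G2/M-gated cells (861 and 649 cells in replicates 1 and 2), S-gated cells (292 and 278) or, when neither programme was present, in 1 of 6 non-cycling states named after the leading marker: Krt24 (28 and 165), Gdf10 (229 and 146), Wfdc18 (428 and 116), Fgf5 (213 and 208), Edn2 (188 and 117) and Krtdap (58 and 115). The summed level of 5 bulge markers (Cd34, Lgr5, Krt15, Nfatc1 and Foxc1) was highest in the Krt24 state, at 21051 and 28515 CPM, and lowest in the Wfdc18 and Gdf10 states, where no sum passed 2646 CPM. The keratinocyte gate also excluded cells with 3 or more detected markers of fibroblasts, endothelium, immune cells, melanocytes or muscle. UMIs of these 5 marker lists each summed to at most 67.1 CPM in any of the 16 sums, the highest being fibroblast markers in G2/M-gated cells of replicate 2. These low sums partly follow from the gate and are no separate check of purity. Median depth was 12522 and 14465 UMIs per cell in G2/M-gated cells, 10394 and 11078 in S-gated cells, and 7456 to 10867 in the non-cycling states. All tests were run on raw UMIs summed per group and library. With the library as a term in the main fit, a p-value measures how group differences vary between the 2 libraries, not the spread between cells.

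Nuclear and mitochondrial subunits ranked the cell groups differently. Nuclear subunits took 3.68% and 3.80% of nuclear-gene UMIs in G2/M-gated cells of replicates 1 and 2, and 3.63% and 3.61% in S-gated cells. In the non-cycling states the share was lowest in the Krt24 state, at 2.26% and 2.92%, and highest in the Edn2 state, at 3.49% and 3.50%. The Gdf10 state (2.70% and 3.11%), the Krtdap state (2.75% and 3.06%), the Wfdc18 state (3.08% and 3.25%) and the Fgf5 state (3.37% and 3.35%) lay between, and the libraries gave nearly the same order, with only Gdf10 and Krtdap exchanged. Both cycling gates lay above every non-cycling sum in both libraries.

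Mitochondrial subunits took a share of all UMIs that followed another order. It was lowest in the Fgf5 state, at 5.24% in replicate 1 and 3.83% in replicate 2, and highest in the Krt24 state in replicate 1 (6.72%, with 4.82% in replicate 2) and in the Krtdap state in replicate 2 (5.19%, with 6.57% in replicate 1). G2/M-gated cells had 6.04% and 4.51%, in the middle of the non-cycling range. Replicate 1 was higher than replicate 2 in each of the 8 groups. The ratio of mitochondrial to nuclear subunit UMIs was therefore compared within a library: it was 1.75 and 1.25 in G2/M-gated cells, 1.69 and 1.33 in S-gated cells, and 1.64 and 1.19 in the Fgf5 state, against 3.19 and 1.74 in the Krt24 state and 2.56 and 1.79 in the Krtdap state. The mitochondrial limit cuts this measure directly, and with no limit the same ratio was 2.04 and 1.48 in G2/M-gated cells, 1.81 and 1.26 in the Fgf5 state, and 3.42 and 2.24 in the Krt24 state.

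**Figure D1:**
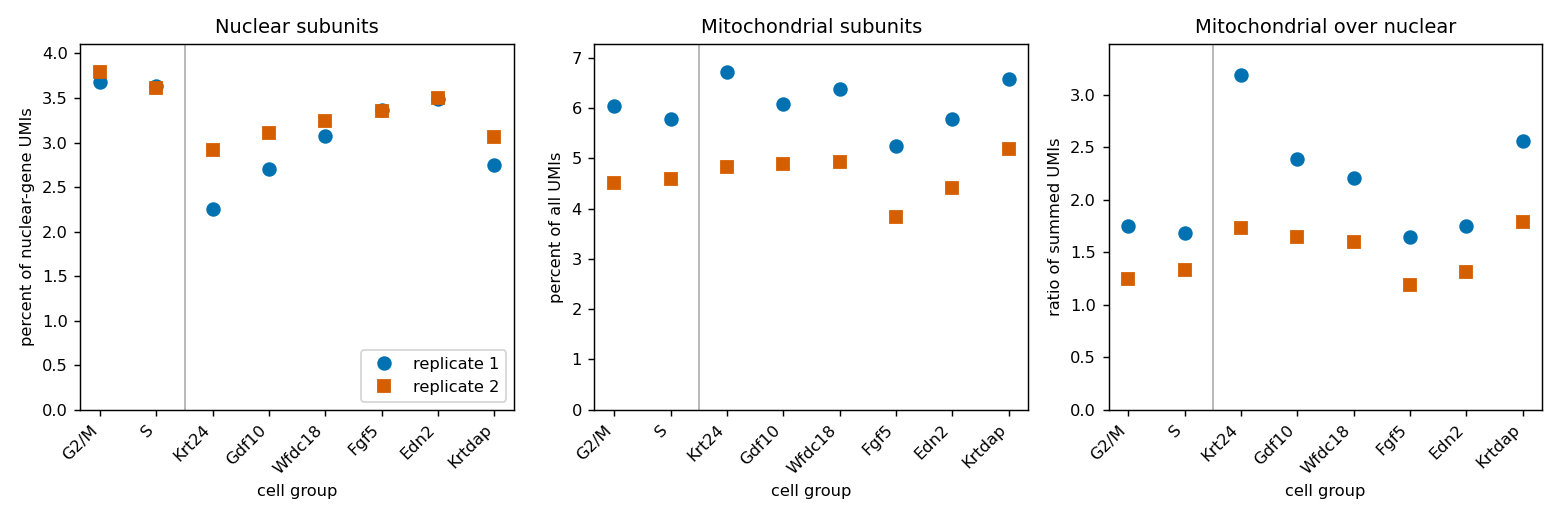
Share of nuclear subunits among nuclear-gene UMIs (left, percent), share of mitochondrial subunits among all UMIs (middle, percent) and the ratio of their summed UMIs (right) in 8 cell groups, with cycling gates left of the grey line and 1 point per library. Nuclear subunits are highest in G2/M-gated cells (3.68% and 3.80%), whereas the mitochondrial share is lowest in the Fgf5 state and higher in replicate 1 throughout.

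In G2/M-gated cells, 27 of the 77 nuclear subunits that passed the expression filter were higher and 3 lower relative to the average of the 6 non-cycling states (edgeR quasi-likelihood test, Benjamini-Hochberg adjusted p under 0.05 over all genes tested). Of all 10547 genes tested, 17.6% were called higher and 11.8% lower, while among the nuclear subunits 35.1% were higher and 3.9% lower. Their median log2 fold change was 0.20, beside -0.01 for all genes tested. The 77 are those with enough UMIs in some group, so 7 features were outside the test: Cox4i2, Cox6a2, Cox7a1, Cox7b2, Cox8b, Cox8c and the second Atp5o row. In S-gated cells 15 of 77 were higher and 1 was lower, beside 10.4% and 3.31% of all genes tested, with a median of 0.22 against 0.01. Both gates are compared with the same non-cycling sums, so the 2 results are not independent.

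By complex, the share of subunits called higher in G2/M-gated cells was 7 of 12 (58.3%) in complex IV and 8 of 16 in complex V, beside 17.6% of all genes. It was 9 of 37 (24.3%) in complex I, 1 of 4 in complex II and 2 of 8 in complex III, where the counts are small. The 3 lower calls were 1 each in complexes I, III and IV. Complexes were assigned by gene symbol throughout, so Ndufa4, now placed in complex IV, was counted in complex I. Cyc1 is not among the 8 of complex III. The medians of complexes I to V were 0.22, 0.18, 0.14, 0.29 and 0.25 on the log2 scale. In S-gated cells 5 of 37 (13.5%), 1 of 4, 1 of 8, 5 of 12 and 3 of 16 were higher in complexes I to V, beside 10.4% of all genes, and 1 of complex IV was lower.

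Cox6b2, an isoform of a complex IV subunit that is best known from testis, showed the largest called increase. Its level was 53.9 and 52.7 CPM in G2/M-gated cells of replicates 1 and 2, 41.5 and 34.8 CPM in S-gated cells, and 32.9 and 28.9 CPM averaged over the non-cycling states. The fold change in G2/M-gated cells was 1.05 ± 0.12 (log2, SE, edgeR, adjusted p = 3.62e-06), but the G2/M sums lay within the range of the non-cycling sums, because Cox6b2 also differed strongly among those. The fit averages the states on the log scale, where states with low levels weigh more. This fold change is therefore larger than the ratio of the CPM means. The gene lies on mouse chromosome 7 (4751792 to 4753094, minus strand, GRCm38).

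Ndufa4, named as a complex I subunit and now placed in complex IV, had 1111 and 921 CPM in G2/M-gated cells and 959 and 804 CPM in S-gated cells, against 556 and 573 CPM averaged over the non-cycling states. Its increase was 0.84 ± 0.10 in G2/M-gated cells (adjusted p = 3.41e-06) and 0.70 ± 0.10 in S-gated cells (adjusted p = 0.000126), both by edgeR's quasi-likelihood test. All G2/M sums lay above all 12 non-cycling sums. Cox5a, which with Cox4 forms the first assembly module of nuclear complex IV subunits, had 763 and 792 CPM in G2/M-gated cells against 493 and 470 CPM in the non-cycling mean, a log2 fold change of 0.63 ± 0.09. Ndufb7 (0.58 ± 0.10) and Ndufa5 (0.52 ± 0.10), both accessory subunits of complex I, were also among the largest increases.

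The Cox7a family moved in opposite directions. Cox7a2, the widely expressed subunit 7A, had 956 and 993 CPM in G2/M-gated cells against 586 and 633 CPM in the non-cycling mean, and rose by 0.57 ± 0.08 on the log2 scale (edgeR, adjusted p = 2.34e-05). Its relative Cox7a2l is described as a factor that joins complexes III and IV into supercomplexes, which were not measured here. Cox7a2l had 382 and 364 CPM in G2/M-gated cells and 479 and 473 CPM in S-gated cells, against 600 and 617 CPM in the non-cycling mean. It fell by 0.81 ± 0.10 in G2/M-gated cells (edgeR, adjusted p = 3.75e-06) and by 0.40 ± 0.09 in S-gated cells (edgeR, adjusted p = 0.00831). Both gates lay below all 12 non-cycling sums, and the 6 states held Cox7a2l within a narrow range of 543 to 689 CPM. The other subunits that fell in G2/M-gated cells were Ndufa6, an accessory subunit of complex I (238 and 239 CPM, against 304 and 300 CPM), and Uqcrh, the hinge protein of complex III (883 and 867 CPM, against 1033 and 979 CPM).

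**Figure D2:**
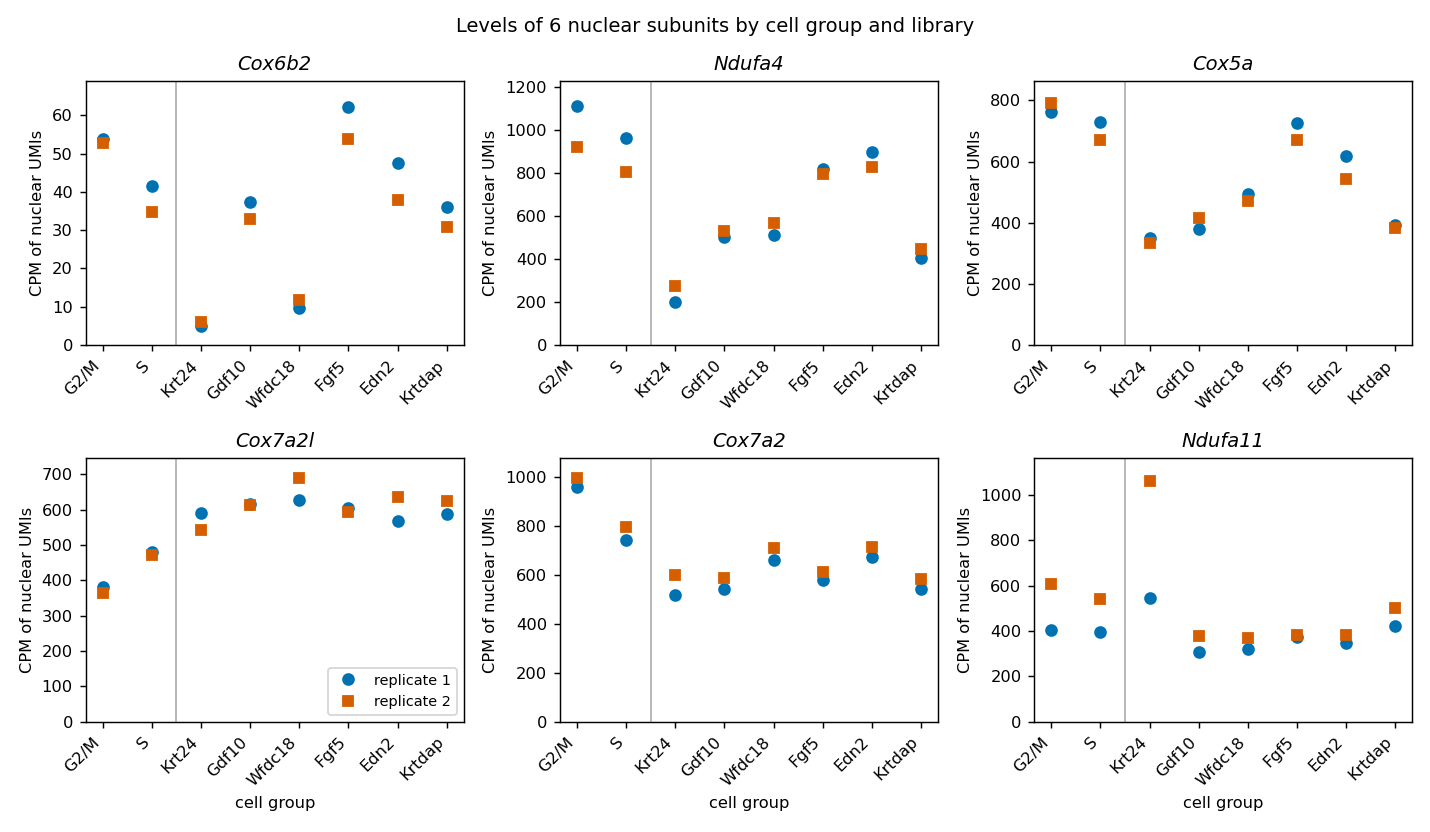
Levels (CPM of nuclear-gene UMIs) of Cox6b2, Ndufa4, Cox5a, Cox7a2l, Cox7a2 and Ndufa11 in 8 cell groups, with cycling gates left of the grey line and 1 point per library. Cox7a2l is lowest in G2/M-gated cells (382 and 364 CPM), Cox7a2 is highest there (956 and 993 CPM), and Ndufa11 is highest in the Krt24 state.

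The c subunit of the ATP synthase rotor is encoded by 3 genes whose mature proteins are identical. All rose in G2/M-gated cells, Atp5g1 by 0.42 ± 0.12 on the log2 scale, Atp5g2 by 0.39 ± 0.08 and Atp5g3 by 0.42 ± 0.11. In S-gated cells Atp5g1 (0.45 ± 0.12) and Atp5g3 (0.38 ± 0.11) passed the test, and Atp5g2 had a fold change of 0.17 that did not. Atp5b, the catalytic beta subunit, had 997 and 1083 CPM in G2/M-gated cells against 740 and 743 CPM in the non-cycling mean and rose by 0.38 ± 0.09. In complex III the small subunits Uqcrq (0.42 ± 0.09) and Uqcr10 (0.40 ± 0.11) rose. In complex II the membrane anchor Sdhd rose in G2/M-gated cells by 0.50 ± 0.13, and the flavoprotein Sdha rose in S-gated cells by 0.43 ± 0.13.

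Other mitochondrial gene lists gave the following counts in G2/M-gated cells, against the same background of 17.6% higher and 11.8% lower. Of 77 tested proteins of the mitochondrial ribosome 28 were higher (median 0.29 on the log2 scale), and in S-gated cells 15 were higher. Of 14 genes for electron carriers and coenzyme Q synthesis 6 were higher and 1 lower. The higher ones included cytochrome c, Cycs (0.77 ± 0.14), the complex III gene Cyc1 (0.61 ± 0.10) and the coenzyme Q synthesis gene Coq7 (0.90 ± 0.12). The lower one was Coq8a, also of coenzyme Q synthesis (-1.36 ± 0.20). Of 15 tricarboxylic acid cycle genes 6 were higher, and of 22 genes for mitochondrial transcription and RNA 4 were higher and 1 lower, with Tfam, the mitochondrial DNA packaging and transcription factor, at 0.39 ± 0.12. Among 8 biogenesis regulators 3 were higher and 1 lower, with Nrf1 at 0.56 ± 0.14 and Esrra at -0.63 ± 0.19. Assembly factors were split, 4 of 42 higher and 4 lower. Cytosolic ribosomal proteins went the other way, with 58 of 76 lower, and 6 of 7 stress and RNA quality genes, including Fos (-0.46 ± 0.11) and Malat1 (-0.62 ± 0.10), were lower; their part in the result was not tested.

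The share of nuclear subunits was also higher in cycling cells within single states. Cycling cells with a state signature were split off and summed by state and phase. In the Wfdc18 state the share was 3.68% and 3.86% in G2/M-gated cells and 3.55% and 3.64% in S-gated cells, against 3.08% and 3.25% in non-cycling cells. In the Edn2 state it was 3.80% and 4.05% in G2/M-gated cells, against 3.49% and 3.50% in non-cycling cells. In the Krtdap state it was 3.56% and 3.71%, against 2.75% and 3.06%, and in the Fgf5 state 3.61% and 3.69%, against 3.37% and 3.35%. In all 4 states both libraries thus moved upward, while the ratio of mitochondrial to nuclear subunit UMIs was lower in G2/M-gated cells of each state and library, for instance 1.72 and 1.21 in the Wfdc18 state against 2.21 and 1.60 in its non-cycling cells. The difference was smallest in the Fgf5 state of replicate 1, at 1.61 against 1.64. There the mitochondrial share of all UMIs was higher in G2/M-gated cells, 5.50% against 5.24%. With state as a term in the model, 36 nuclear subunits were higher and 6 lower in G2/M-gated cells, beside 17.8% higher and 18.5% lower among the 9456 genes of that fit. In S-gated cells 9 were higher and 1 lower, beside 5.31% and 2.04%.

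**Figure D3:**
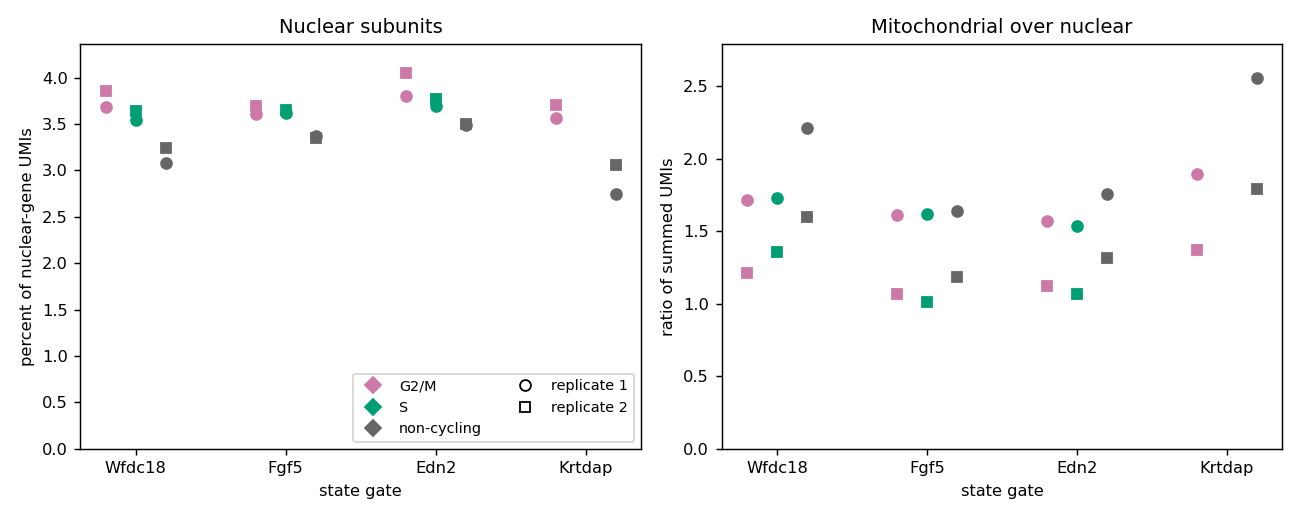
Share of nuclear subunits among nuclear-gene UMIs (left, percent) and ratio of mitochondrial to nuclear subunit UMIs (right) in G2/M-gated, S-gated and non-cycling cells of 4 states, with circles for replicate 1 and squares for replicate 2 (S-gated Krtdap cells were too few). In each state and library the G2/M share is above the non-cycling share, for instance 3.68% and 3.86% against 3.08% and 3.25% in the Wfdc18 state.

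Among the 6 non-cycling states, 22 of 77 nuclear subunits differed in a joint test (edgeR, adjusted p under 0.05), which is 28.6%, against 40.6% of all genes tested. The Krt24 state departed most in the downward direction. There 13 of 77 nuclear subunits were lower and 2 higher than in the mean of the other 5 states, beside 8.72% lower and 9.94% higher among all genes tested, and the median was -0.16 against 0.00. The libraries differed here: the median was -0.40 in replicate 1, where the state held 28 cells, and -0.02 in replicate 2, although each of the 13 genes had a negative fold change in both. By symbol, 6 of the 13 were among the 12 complex IV subunits tested and 3 were complex V subunits. The other 4 were complex I subunits, with Ndufa4 counted there. Cytosolic ribosomal proteins were higher in the same state, 27 of 76 with 2 lower, and their part in the result was not tested.

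Ndufa4 had 201 and 276 CPM in the Krt24 state, against 626 and 632 CPM in the mean of the other states, and lay below all other non-cycling sums. Its log2 fold change was -1.20 ± 0.13 (edgeR, adjusted p = 5.57e-06). Cox6b2 was nearly absent, with 4.91 and 6.14 CPM (1 and 8 UMIs) in the Krt24 state against 38.5 and 33.5 CPM in the other states, a fitted log2 fold change of -2.25 ± 0.32. The structural subunits Cox6a1 (206 and 265 CPM, against 356 and 456 CPM) and Cox6c (840 and 839 CPM, against 1344 and 1373 CPM) also lay below all other non-cycling sums. Ndufa3 (-0.81 ± 0.18), Ndufb7 (-0.64 ± 0.14) and Ndufc2 (-0.61 ± 0.13), accessory subunits of complex I, completed the largest decreases.

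Of the 77 nuclear subunits, 19 had a positive fold change in the Krt24 state and 2 of these were called. Ndufa11, an accessory membrane subunit of complex I, had 545 and 1062 CPM in the Krt24 state, against 355 and 403 CPM in the mean of the other states, and both values lay above all 10 other non-cycling sums. The increase was 1.17 ± 0.14 on the log2 scale (edgeR, adjusted p = 8.03e-06). Exons of Ndufa11 and of Vmac overlap on opposite strands. Vmac, at 4.91 and 20.7 CPM in the Krt24 state, was also called higher (1.10, adjusted p = 0.0333 by edgeR). Strand handling is not stated, and whether reads of Vmac entered the Ndufa11 counts, or the reverse, was not tested. The other subunit called higher was Ndufa4l2, a relative of Ndufa4 known for its induction by low oxygen. It had 9.83 and 6.91 CPM in the Krt24 state and rested on 2 and 9 UMIs. Elsewhere in the 16 sums it passed 2.14 CPM only in the Krtdap state (7.99 and 3.99 CPM). It thus passed the expression filter largely through the Krt24 sums, and its call is not independent of that filter. Fibroblasts carried along in the sort had 158 and 94.2 CPM.

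Sequences upstream of 4 of these genes are shown because their levels diverged between states while all serve the same chain. Windows run from 250 bases before to 50 bases after the RefSeq start (GRCm38.p6). Capitals mark matches, on either strand, to TGCGCA, a half-site of the NRF1 motif, to AAGATGGC, the YY1 motif, or to CCGGAAG, the ETS motif. Cox6b1 and Cox6b2 are the isoform pair of chromosome 7; Cox6a1 fell and Ndufa11 rose in the Krt24 state.
Cox6b2, chr7:4753045-4753344, minus strand: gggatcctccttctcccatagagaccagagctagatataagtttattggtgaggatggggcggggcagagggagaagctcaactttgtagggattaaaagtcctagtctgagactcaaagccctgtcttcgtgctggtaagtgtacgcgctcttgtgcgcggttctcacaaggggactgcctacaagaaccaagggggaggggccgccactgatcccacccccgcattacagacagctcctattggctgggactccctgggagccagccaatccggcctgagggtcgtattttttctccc
Cox6b1, chr7:30626065-30626364, minus strand: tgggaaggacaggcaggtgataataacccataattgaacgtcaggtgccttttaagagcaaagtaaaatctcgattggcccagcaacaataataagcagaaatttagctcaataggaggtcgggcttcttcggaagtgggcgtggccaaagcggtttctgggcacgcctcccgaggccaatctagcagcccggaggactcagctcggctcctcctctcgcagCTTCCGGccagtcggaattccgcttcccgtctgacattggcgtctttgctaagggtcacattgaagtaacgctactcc
Cox6a1, chr5:115348909-115349208, minus strand: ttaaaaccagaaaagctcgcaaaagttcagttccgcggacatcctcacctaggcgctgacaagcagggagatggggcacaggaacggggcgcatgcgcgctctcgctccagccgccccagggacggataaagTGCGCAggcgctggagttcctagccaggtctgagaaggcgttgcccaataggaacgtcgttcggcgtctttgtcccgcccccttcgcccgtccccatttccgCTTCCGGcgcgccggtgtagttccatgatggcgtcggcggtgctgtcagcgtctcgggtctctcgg
Ndufa11, chr17:56717512-56717811, plus strand: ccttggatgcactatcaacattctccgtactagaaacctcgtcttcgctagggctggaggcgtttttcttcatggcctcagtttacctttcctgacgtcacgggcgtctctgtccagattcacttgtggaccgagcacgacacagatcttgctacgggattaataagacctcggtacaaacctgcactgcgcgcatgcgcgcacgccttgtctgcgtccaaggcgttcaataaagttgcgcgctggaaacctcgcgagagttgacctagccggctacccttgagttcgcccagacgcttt

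Of the 83 nuclear symbols 66 had a promoter entry. TGCGCA was in 25.8% of the 66, against 8.79% of promoters of all genes. AAGATGGC was in 13.6%, against 3.19% of all genes, and CCGGAAG in 24.2%, against 9.93%. Cox6a1, which was lower in the Krt24 state, held 1 TGCGCA and 1 ETS string in its window, and Cox6b1 held 1 ETS string. The windows of Cox6b2 and Ndufa11 held none of the 3 strings. Only these exact strings were searched, so a window without a string may still hold another form of the motif. The letters gcgcatgcgc, a palindromic form of the NRF1 motif, stand unmarked in the windows of both Cox6a1 and Ndufa11. These matches describe the letters only.

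The Edn2 state was the non-cycling state with the most increases, 11 of 77 nuclear subunits higher and none lower, beside 7.72% and 4.89% of all genes tested, with a median of 0.16 against 0.01. At an unadjusted p under 0.05 edgeR gave 2 lower, and DESeq2 called 0 lower. Ndufa4 had 895 and 826 CPM in the Edn2 state, against 488 and 522 CPM in the mean of the other states, an increase of 0.81 ± 0.10. Cox6c had 1733 and 1764 CPM, against 1165 and 1188 CPM, and the ATP synthase subunit g gene Atp5l had 1323 and 1393 CPM, against 951 and 1021 CPM. Each of these 3 genes lay above all other non-cycling sums in both libraries. Cox6b2 (0.97 ± 0.17), Ndufa3 (0.62 ± 0.14) and Sdha (0.53 ± 0.15) completed the largest increases, with overlapping sums. Without the Krt24 state among the references 7 subunits were called higher, beside 5.43% of all genes in that fit. Among 7 stress and RNA quality genes, Fos (0.54 ± 0.11) and Malat1 (0.42 ± 0.09) were higher in the Edn2 state and Neat1 (-0.85 ± 0.27) lower, and their part in the result was not tested.

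In the Fgf5 state 5 of 77 nuclear subunits were higher (6.49%) and none lower, beside 13.1% higher and 10.8% lower among all genes tested; edgeR gave 2 lower at an unadjusted p under 0.05 and DESeq2 called 2 lower. Cox6b2 reached its highest non-cycling levels here, 62.2 and 53.8 CPM, against 27.1 and 23.9 CPM in the mean of the other states (1.45 ± 0.15, edgeR, adjusted p = 1.03e-06). Cox5a had 725 and 672 CPM, against 446 and 429 CPM, and Ndufa4, Ndufb7 and Cox7c were the other 3. In the same state 28 of 76 cytosolic ribosomal proteins were lower and 1 higher, and 3 of 7 stress and RNA quality genes were lower, Atf3 (-1.29 ± 0.21), Jun (-0.42 ± 0.12) and Hspa1b (-0.52 ± 0.17); their part in the results for the Fgf5 state, nuclear or mitochondrial, was not tested. In the Wfdc18 state 5 were higher and 1 lower, beside 12.4% and 8.37% of all genes. The lower gene was Cox6b2, at 9.71 and 11.8 CPM in the Wfdc18 state against 37.5 and 32.3 CPM in the other states (-1.46 ± 0.21), and the higher ones were Ndufc2 (0.51 ± 0.10), the Rieske protein gene Uqcrfs1 (0.45 ± 0.11), Cox6a1, Cox8a and Atp5b. In the Gdf10 state Cox6b2 was higher (0.76 ± 0.17) and Ndufs8, an iron-sulfur core subunit of complex I, lower (-0.39 ± 0.12), beside 9.4% and 2.17% of all genes. In the Krtdap state the single call among the 77 was Cox5a, lower by 0.36 ± 0.10 on the log2 scale, beside 3.75% higher and 1.84% lower among all genes. Cyc1, outside the 77, was called lower in the Krtdap state (-0.85 ± 0.14) and higher in the Wfdc18 state (0.35 ± 0.11). Without the Krt24 state among the references, the Krtdap state had 1 subunit higher and 13 lower, beside 7.78% and 5.89% of all genes in that fit, and with no filter on low counts it had 1 higher and 5 lower.

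Cox6b2 and its partner isoform Cox6b1 were both lowest in the Krt24 state and had their highest non-cycling levels in the Fgf5 and Edn2 states, over ranges of different size. The order of the Cox6b2 levels was the same in both libraries, with the Krt24 state, the Wfdc18 state, the Krtdap state, the Gdf10 state, the Edn2 state and the Fgf5 state from low to high, between 4.91 and 62.2 CPM. Cox6b1, the general form, ran from 432 and 626 CPM in the Krt24 state to 906 and 898 CPM in the Edn2 state. Its fold changes were -0.42 ± 0.11 in the Krt24 state and 0.33 ± 0.10 in the Edn2 state, both called, and 0.06 in G2/M-gated cells, not called. Within complex IV the remaining isoform pairs were one-sided. Cox4i1 ran from 1194 to 1933 CPM over the 16 sums and Cox4i2 stayed at or below 0.49 CPM, with 24.2 and 11.1 CPM in fibroblasts. Cox6a2, Cox7b2, Cox8b and Cox8c, known from muscle, heart or testis, had at most 1 UMI each among the kept cells of both libraries, and Cox7a1 had 38 and 38 UMIs. UMIs mark 3′ ends and were not divided by gene length.

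**Figure D4:**
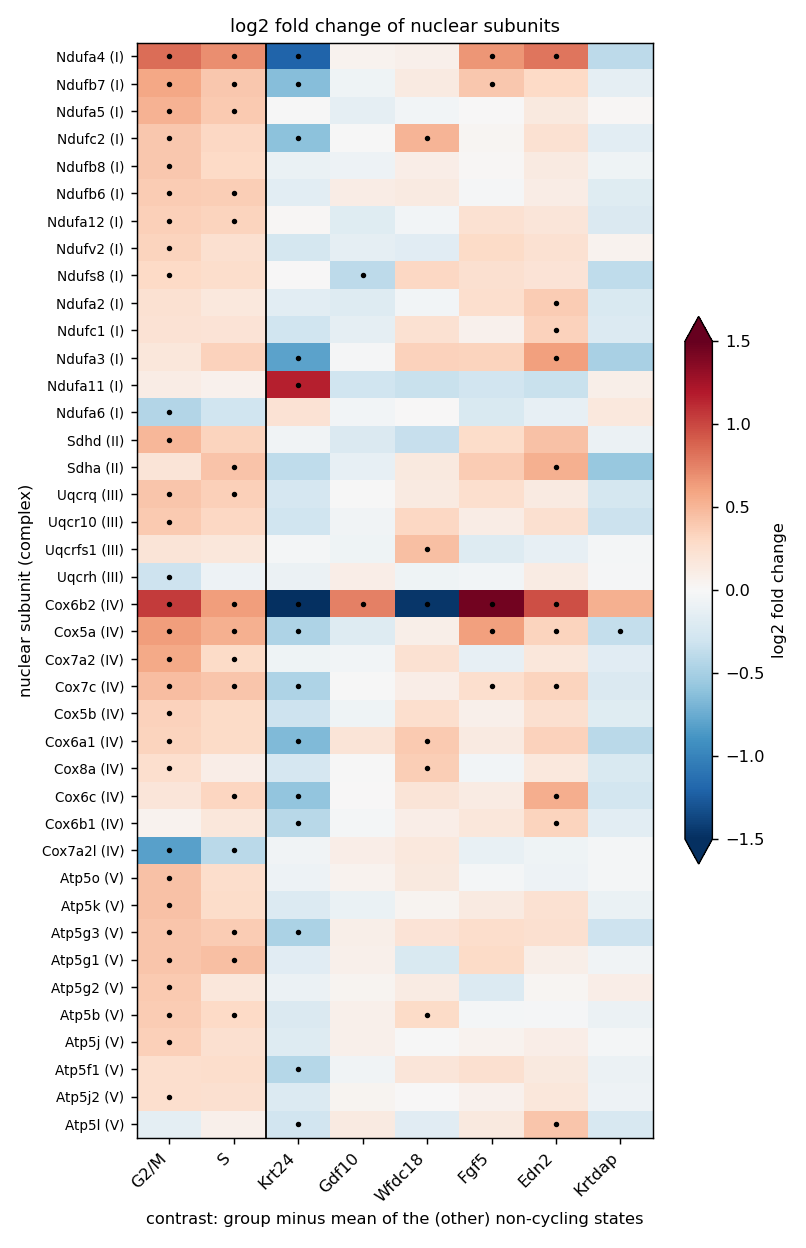
Log2 fold change of the 40 nuclear subunits called in at least 1 contrast other than Ndufa4l2, which rests on few UMIs (rows, grouped by complex, ordered by the G2/M value), in 8 contrasts (columns, cycling gates left of the line); black dots mark adjusted p under 0.05 and colours saturate at 1.5. Cycling columns are mostly positive, with Cox7a2l at -0.81 and Ndufa6 at -0.44 as exceptions, and the Krt24 column is mostly negative, with Ndufa11 at 1.17.

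Medians over the 16 sums were compared among nuclear subunits with a median above 0, by complex as assigned by symbol. In complex I they ran from 43.9 CPM for Ndufs1, the largest iron-sulfur core subunit, to 680 CPM for Ndufa4. In complex II they ran from 83.1 CPM for Sdhc to 166 CPM for Sdhb, in complex III from 130 CPM for Uqcrfs1 to 991 CPM for Uqcrh, in complex IV from 0.74 CPM for Cox7a1 to 1646 CPM for Cox4i1, and in complex V from 8.08 CPM for Atp5s to 1091 CPM for Atp5e. How reads that fit several places were counted is not given in the sources used here, and many of these genes have processed copies elsewhere in the genome, so small values are uncertain. The median was 0 for Ndufa4l2, Cox4i2, Cox6a2, Cox7b2, Cox8b, Cox8c and the second Atp5o row. Exons of 6 nuclear members overlap another gene on the same strand and those of 26 on the opposite strand.

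The mitochondrial genes were next scaled to their own sum, so that each value is a share of mitochondrial subunit UMIs and a rise of one lowers the rest. Over the 16 sums the largest shares were mt-Co3 (16.1% to 22.0%), mt-Atp6 (17.8% to 22.3%), mt-Co2 (12.5% to 14.7%), mt-Co1 (11.98% to 16.2%) and mt-Cytb (10.7% to 12.5%). The complex I genes mt-Nd4 (5.98% to 8.21%), mt-Nd2 (4.79% to 6.29%) and mt-Nd1 (3.95% to 7.01%) followed. The smallest were mt-Nd5 (0.87% to 2.57%), mt-Nd3 (0.94% to 1.74%), mt-Nd4l (0.33% to 1.76%), mt-Atp8 (0.09% to 0.37%) and mt-Nd6 (0.07% to 0.23%), which alone lies on the opposite strand. Of the 13 genes, 1 was called in G2/M-gated cells, beside 17.6% higher and 11.8% lower among all genes. It was mt-Nd1 (4.91% and 7.01%, against 4.33% and 5.53%; 0.26 ± 0.07, edgeR, adjusted p = 0.0114). None was called in S-gated cells, beside 10.4% higher and 3.31% lower, where edgeR gave 2 of 13 an unadjusted p under 0.05 and DESeq2 called 0.

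The Krt24 state had 4 of 13 called, 3 higher and 1 lower, beside 9.94% higher and 8.72% lower among all genes. mt-Atp8 took 0.287% and 0.365% of mitochondrial UMIs there, against 0.103% and 0.193% in the mean of the other states, and lay above all of their sums. These shares rest on 42 and 241 UMIs, with exact binomial 95% intervals of 0.207% to 0.387% in replicate 1 and 0.321% to 0.415% in replicate 2, which cover counting error only. The log2 fold change was 1.11 ± 0.17 (edgeR, adjusted p = 0.000148). mt-Nd5 (0.52 ± 0.10) and mt-Co1 (0.22 ± 0.06) were also higher and mt-Co3 (-0.24 ± 0.06) lower. mt-Nd6 was higher in the Edn2 state, at 0.143% and 0.232% against 0.088% and 0.160% (0.63 ± 0.13), and in the Fgf5 state (0.41 ± 0.12), where mt-Nd5 was lower (-0.32 ± 0.11).

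Scaled to nuclear-gene UMIs instead, the Fgf5 state had 12 of 13 mitochondrial genes lower, beside 10.9% of all genes tested, with their median at -0.40 on the log2 scale. Among all genes 13.2% were higher there. The Krt24 state had 8 of 13 higher, beside 9.97% higher and 8.73% lower among all genes, with a median of 0.25. Its mitochondrial share of all UMIs was the highest only in replicate 1 (6.72%, 28 cells). In replicate 2 that share was 4.82%, below the Gdf10 (4.88%), Wfdc18 (4.93%) and Krtdap (5.19%) states. Scaled to nuclear-gene UMIs, mt-Co1, for example, differed by -0.59 ± 0.07 in the Fgf5 state and by 0.42 ± 0.07 in the Krt24 state. Some genes called by share were not called on this scale. These were mt-Nd6 in the Fgf5 state (0.007), mt-Co3 in the Krt24 state (-0.04) and mt-Nd1 in G2/M-gated cells (0.12). The calls by share of mt-Atp8, mt-Nd5 and mt-Co1 in the Krt24 state, mt-Nd5 in the Fgf5 state and mt-Nd6 in the Edn2 state remained. In G2/M-gated cells mt-Co1 and mt-Co3 were lower (2 of 13, beside 11.9% lower and 17.6% higher among all genes), with a median of -0.16 over the 13 genes; 27 of 77 nuclear subunits were higher there. The difference between the 2 genomes was not itself tested. Library sizes without TMM factors gave 1 of 13 higher in G2/M-gated cells and 5 of 13 higher in the Krt24 state, with a median of 0.17 there. The Fgf5 count stayed at 12 lower with that scaling, with a 20% limit and with no limit.

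The libraries also differed in mitochondrial composition. mt-Nd4l took 1.66% of mitochondrial subunit UMIs in replicate 2 and 0.404% in replicate 1, over the 8 groups summed (16387 of 989679 and 6504 of 1611189 UMIs). The ratio was 4.10, with a 95% counting interval of 3.99 to 4.22. Replicate 2 was higher in each group, by 2.34 times in the Krt24 state to 4.66 times in S-gated cells, and the lowest share in replicate 2 (1.45%) lay above the highest in replicate 1 (0.75%). With 1 library on each side this has no replicate check. Among nuclear genes tested with a mean of at least 100 CPM, 0 of 1431 had a median ratio as large as the 3.87 of mt-Nd4l, and among all 10534 nuclear genes tested 13 had. The 77 nuclear subunits had a median of 1.05.

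mt-Nd4l did not stand alone. mt-Atp8 (median ratio 1.89), mt-Nd5 (1.86) and mt-Nd6 (1.80) were higher in replicate 2 in all 8 groups, as were mt-Nd1 (1.30) and mt-Nd4 (1.24). mt-Atp6 (0.83), mt-Co3 (0.88) and mt-Nd3 (0.84) were lower in replicate 2 in all 8 groups. mt-Co1, mt-Co2, mt-Cytb and mt-Nd2 had medians between 0.99 and 1.07. The differing genes thus included those with the smallest shares, and mt-Nd3, of small share too, moved the other way. The comparisons between groups carry a replicate term.

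**Figure D5:**
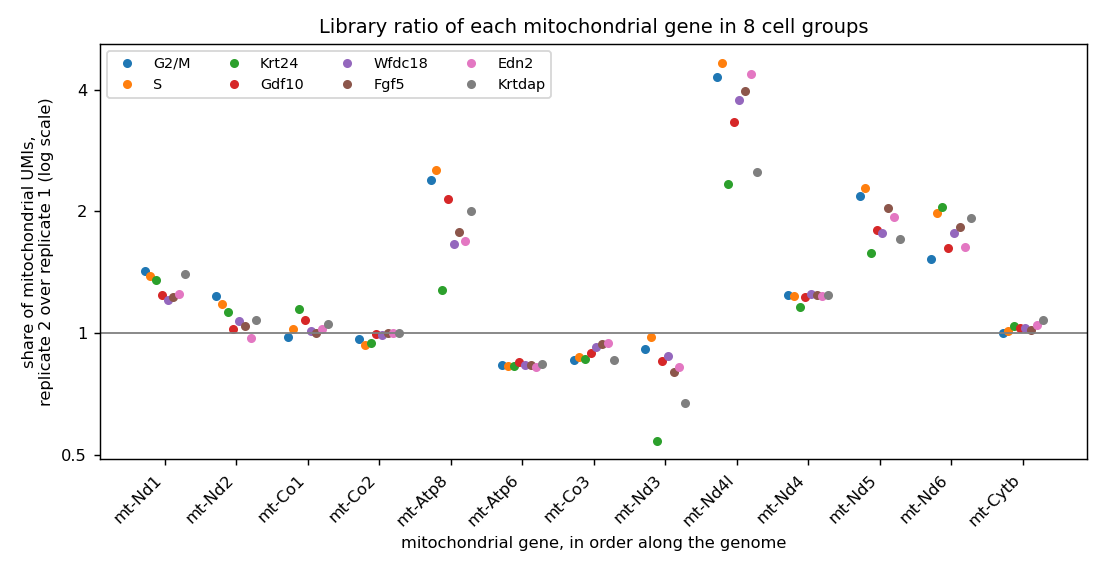
Share of mitochondrial subunit UMIs in replicate 2 over that in replicate 1 (log axis) for 13 mitochondrial genes in genome order, with 1 point for each of 8 cell groups. mt-Nd4l lies between 2.34 and 4.66 in the 8 groups, and mt-Atp8, mt-Nd5 and mt-Nd6 also lie above 1.

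Both mt-Nd4l and mt-Atp8 share bases with the next gene on the same strand, and the junctions are shown because the shared bases belong to both genes. How reads across a junction were assigned was not examined. mt-Nd4l (9877 to 10173) overlaps mt-Nd4 (10167 to 11544) by 7 bases, and mt-Atp8 (7766 to 7969) overlaps mt-Atp6 (7927 to 8607) by 43 bases; both pairs are known to be carried on bicistronic transcripts. The last 60 bases of the upstream gene and the first 60 of the downstream gene follow (GENCODE transcripts, GRCm38, plus strand), with the shared bases in capitals.
mt-Nd4l, chrM:10114-10173: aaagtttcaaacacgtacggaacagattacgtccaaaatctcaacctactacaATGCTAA
mt-Nd4, chrM:10167-10226: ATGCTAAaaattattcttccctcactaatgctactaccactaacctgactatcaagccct
mt-Atp8, chrM:7910-7969: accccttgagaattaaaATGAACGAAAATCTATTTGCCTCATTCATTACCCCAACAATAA
mt-Atp6, chrM:7927-7986: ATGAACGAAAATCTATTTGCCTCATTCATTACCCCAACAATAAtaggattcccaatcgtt

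Within these pairs the partners differed. The downstream partner mt-Nd4 had a library ratio of 1.24 and a range of 1.16 to 1.25 over groups, and mt-Atp6 had one of 0.83 with a range of 0.82 to 0.85. mt-Nd5 and mt-Nd6 overlap by 14 bases on opposite strands, and their ratios, 1.86 and 1.80, differed by less than either range over the groups. Where along each gene the UMIs lay was not analysed here.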

How the data were processed

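Both libraries were deposited as raw UMI count matrices, with whole-number counts per gene and barcode; the authors used Cell Ranger 3.1.0 and Seurat 3.1 with mm10, per the submitters' processing notes, and the handling of strand and of reads that fit several places is not given in the sources used here. Barcodes needed 1000 detected genes and no more than 10% of UMIs from mitochondrial genes. Keratinocytes were gated by marker genes: G2/M at 8 or more marker UMIs per 10000 from at least 4 markers, S at 8 or more from at least 5 markers with at most 2 of G2/M, and states by a mean capped z score of at least 0.4 that led the next state by 0.2. Cells between phases or states, and groups under 20 cells in a library, were left out. Doublets were not removed in the main results; Scrublet's automatic threshold (scanpy 1.11.5) marked 0 cells in either library, so an alternative removed the highest scores instead (295 and 195 kept cells). Raw counts were summed per group and library, and 16 sums were fitted with edgeR 4.0.16 (quasi-likelihood, filterByExpr, 9 coefficients, 7 residual degrees of freedom) with the library as a replicate term. Nuclear genes were scaled to nuclear-gene UMIs with TMM factors and mitochondrial genes to their own sum. Between groups, the replicate 1 minus replicate 2 differences correlated at 0.11 to 0.73 over 28 pairs, as sums of a group pair share their libraries. Groups cut from 1 library are not independent samples. The p-values measure only how group differences vary between 2 libraries after the replicate term, with the spread estimate shared by all groups. This variation may be technical. Named genes are all mitochondrial members, the isoform sets, the extremes per complex, and per contrast the 6 largest called increases and decreases with the same direction in both libraries; Cox6c in the Krt24 state and Atp5b, Sdhd, Uqcrq, Uqcr10 and the genes of other lists were named after their values were seen. The members and gene lists were chosen with earlier results of these data known. The fit was tested on simulated data. DESeq2 1.42.0 was an alternative. Annotation was GENCODE vM21, and promoters came from RefSeq, GRCm38.p6.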

Additional observations from a re-analysis of the deposited data

How the results depend on the processing

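Library sizes without TMM factors put the median of all genes at 0.10 on the log2 scale in G2/M-gated cells, against -0.01 with them, and gave 46 calls there (44 higher), 25 in S-gated cells, 23 in the Krt24 state (21 lower), 19 in the Fgf5 state and 0 in the Krtdap state. Relative to all genes the G2/M median of the subunits was then 0.31 against 0.10. The share of calls over all genes that were higher went to 75.7% in G2/M-gated cells without TMM factors, against 59.7% with them, to 66.1% against 81.2% in the Gdf10 state and to 65.9% against 54.9% in the Fgf5 state. DESeq2 gave 26 calls in S-gated cells, 12 in the Fgf5 state and 3 in the Krtdap state. Without a filter on low counts the Gdf10 state had 1, the Fgf5 state 8 and the Krtdap state 6. With no replicate block in the model, calls fell to 17 in G2/M-gated cells, 5 in S-gated cells, 1 in the Gdf10 state, 4 in the Edn2 state, 0 in the Krtdap state, 11 in the joint test and 0 mitochondrial calls over all contrasts, against 8 with it.

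A 5% mitochondrial limit left the Krt24 and Krtdap states under 20 cells and out of the fit, and gave 2 calls in S-gated cells, 6 in the Gdf10 state, 2 in the Edn2 state, 9 in the joint test and 1 mitochondrial call; the ratio of mitochondrial to nuclear UMIs was then 1.10 in G2/M-gated cells, 1.17 in S-gated cells, 1.37 in the Wfdc18 state and 1.14 in the Edn2 state, and the library ratio of mt-Nd4l 4.42. A 20% limit gave 9 calls in the Fgf5 state and 2 in the Krtdap state. State as a term gave 10 calls in S-gated cells, gates on thinned cells 9 in the Fgf5 state, removal of doublets 0 and stricter gates 2 in the Krtdap state. In alternatives chosen after seeing the data, cells of 6000 to 14000 UMIs gave 4 calls in the Krtdap state, and fits without the Krt24 state gave 10 in the Wfdc18 state, 7 in the Edn2 state and 14 in the Krtdap state. Mitochondrial genes scaled to nuclear UMIs had 27 calls over 8 contrasts, 31 with a 20% limit, 25 with no limit and 21 without TMM factors; mt-Nd6 in the Fgf5 state reversed to -0.0096 and -0.068 under the 20% limit and no limit. By contrast, on that scale the Krt24 state had 5 higher without TMM factors against 8 with them, the Edn2 state 1 lower without TMM factors and with no limit against 3, and the Krtdap state 3 higher with a 20% limit and with no limit and 1 without TMM factors against 0. Other counts of nuclear subunits per contrast stayed within 1.5 times.

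Leaving out a library leaves no residual degrees of freedom, so only values follow: without replicate 1 or replicate 2 the ratio of mitochondrial to nuclear UMIs was 1.25 to 1.75 in G2/M-gated cells, 1.33 to 1.69 in S-gated cells, 1.74 to 3.19 in the Krt24 state, 1.65 to 2.39 in the Gdf10 state, 1.60 to 2.21 in the Wfdc18 state, 1.19 to 1.64 in the Fgf5 state, 1.31 to 1.75 in the Edn2 state and 1.79 to 2.56 in the Krtdap state. Of 52 named gene and contrast pairs, 51 kept their direction under all settings run and 23 also passed the test in all tested settings. The pairs were chosen as called and with the same direction in both libraries. Their direction without either library was therefore fixed by the choice. The cause of these shifts was not tested. The Krt24 state of replicate 1 (28 cells) limits depth most.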

Other observations

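Outside the gated groups, fibroblasts carried along in the sort (57 and 37 cells in replicates 1 and 2) had 1.96% and 2.70% of nuclear-gene UMIs in nuclear subunits and 3.96% and 2.96% of all UMIs in mitochondrial subunits. Upper follicle cells (17 and 28 cells) had 3.41% and 2.89% in nuclear subunits and 6.23% and 4.66% in mitochondrial subunits. Keratinocytes between phases (1036 and 805 cells) had 3.50% and 3.56% in nuclear subunits, and non-cycling keratinocytes with no state (441 and 330 cells) had 3.26% and 3.20%. These groups entered no test.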
